A study of Mus musculus with 9 samples.

Results

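Thrombospondins are secreted calcium-binding glycoproteins of the extracellular matrix, and the mouse genome encodes 5 of them in Thbs1, Thbs2, Thbs3, Thbs4 and Comp (cartilage oligomeric matrix protein). All probe sets whose only annotated symbol was 1 of these genes were taken, which gave 8 of the 45037 probe sets tested and 5 of the 18193 genes. Thbs1 had 2 probe sets, Thbs2 had 3, and Thbs3, Thbs4 and Comp had 1 each. A further probe set, 1421811_at, carried both Pald1 and Thbs1 as symbols and was not counted. On the mouse assembly GRCm38.p6 the genes lie on 5 chromosomes, Thbs1 at chr2:118111876-118127133, Thbs2 at chr17:14665500-14694262, Thbs3 at chr3:89215180-89226841, Thbs4 at chr13:92751586-92794818 and Comp at chr8:70373548-70382066.

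The cells were sclerotome, the somite tissue that builds the vertebrae and intervertebral discs (IVD), from mouse embryos at E11.5 that were wild type according to the study. They were plated at high density as micromass drops, in medium with serum and ascorbic acid that was common to all groups. RNA was measured on 9 Affymetrix arrays, 3 from cultures given TGF-β1 at 5 ng/ml for 8 h, 3 from cultures given BMP4 at 50 ng/ml for 8 h and 3 from untreated cultures, with 50 ng of total RNA amplified for each. The comparisons ask which genes TGF-β1 and BMP4 regulate in sclerotome. Each replicate comes from a separate repeat of the experiment according to the study, so that p values measure the spread between repeats. Precision is limited by having 3 arrays a group. The sources differ on whether the factors were added after attachment or after a night in culture. The strain of the embryos, and how many were pooled for a culture, are not given in the sources used here.

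Thbs1 and Thbs2 assemble as trimers and carry the procollagen domain and the type 1 repeats that bind CD36. Thbs3, Thbs4 and Comp assemble as pentamers and lack both. Thbs1 activates latent TGF-β and inhibits vessel growth, Thbs2 shapes collagen fibrils, and Comp and Thbs4 are matrix proteins of cartilage and tendon.

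The deposited values are log2 signals centred for each probe set on its median over the 9 arrays, so that a value of 0 is that probe set's middle array. Differences between arrays were kept but levels were not. The level of one thrombospondin could therefore not be set against that of another, and whether sclerotome markers or thrombospondins lay above background could not be judged. In cultures of mixed cells, fewer cells of a type and less RNA per cell cannot be told apart.

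The RefSeq promoter table for GRCm38.p6 held 3 of the 5 genes, and the 250 bases upstream of their starts are shown. Thbs1 and Comp had no entry there, and test results played no part in the choice. Capitals mark the letters CAGAC, the Smad box that receptor-activated Smads can bind, here read from the other strand as GTCTG.
Thbs2, chr17:14694263-14694512, minus strand: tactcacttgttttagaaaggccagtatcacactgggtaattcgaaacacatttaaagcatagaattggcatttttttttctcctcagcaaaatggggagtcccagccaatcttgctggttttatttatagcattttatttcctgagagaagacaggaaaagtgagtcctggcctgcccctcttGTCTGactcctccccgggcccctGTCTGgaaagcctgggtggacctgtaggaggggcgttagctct
Thbs3, chr3:89214930-89215179, plus strand: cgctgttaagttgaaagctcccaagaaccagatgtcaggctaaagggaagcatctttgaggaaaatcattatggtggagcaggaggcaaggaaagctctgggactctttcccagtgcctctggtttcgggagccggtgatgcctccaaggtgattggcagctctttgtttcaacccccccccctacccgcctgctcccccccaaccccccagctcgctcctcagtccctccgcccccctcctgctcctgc
Thbs4, chr13:92794819-92795068, minus strand: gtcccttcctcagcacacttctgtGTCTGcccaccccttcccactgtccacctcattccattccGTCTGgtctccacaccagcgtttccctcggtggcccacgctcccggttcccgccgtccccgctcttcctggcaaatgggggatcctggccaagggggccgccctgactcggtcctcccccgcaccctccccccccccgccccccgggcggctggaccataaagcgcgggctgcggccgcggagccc
All 5 motifs were searched on both strands, so that a match may lie on either. Matches of CAGAC began 66 and 43 bases before the start of Thbs2 and 226 and 186 bases before that of Thbs4. The Thbs3 window held no match (0), and 42.2% of 32817 promoter windows of this length held at least 1. The letters GGCGCC, found in some BMP Smad sites, were in none of the 3 windows (0) and in 9.59% of all. The GC box GGGCGG was found at 89, 51 and 42 bases before the start of Thbs4 and at 21 bases before that of Thbs3 (32.7% of all windows), and TATAA at 125 bases before that of Thbs2 (22.8%). CCAAT lay 186 and 144 bases before the start of Thbs2 and 98 bases before that of Thbs3 (33.8% of all windows), and only the match at 144 reads CCAAT on the strand shown. None of the 5 motifs overlapped another. The G and C content was 46.8% for Thbs2, 58.8% for Thbs3 and 70.8% for Thbs4, against a median of 52.4% over all windows. These matches describe letters and no binding was measured.

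The 5 genes fell into different patterns. Thbs4 was higher with both factors than without, Thbs2 was lower with BMP4, and Thbs3 differed between TGF-β1 and BMP4 cultures. Thbs1 and Comp passed the test in none of the 3 comparisons (0), although both had their highest means with TGF-β1.

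**Figure D1:**
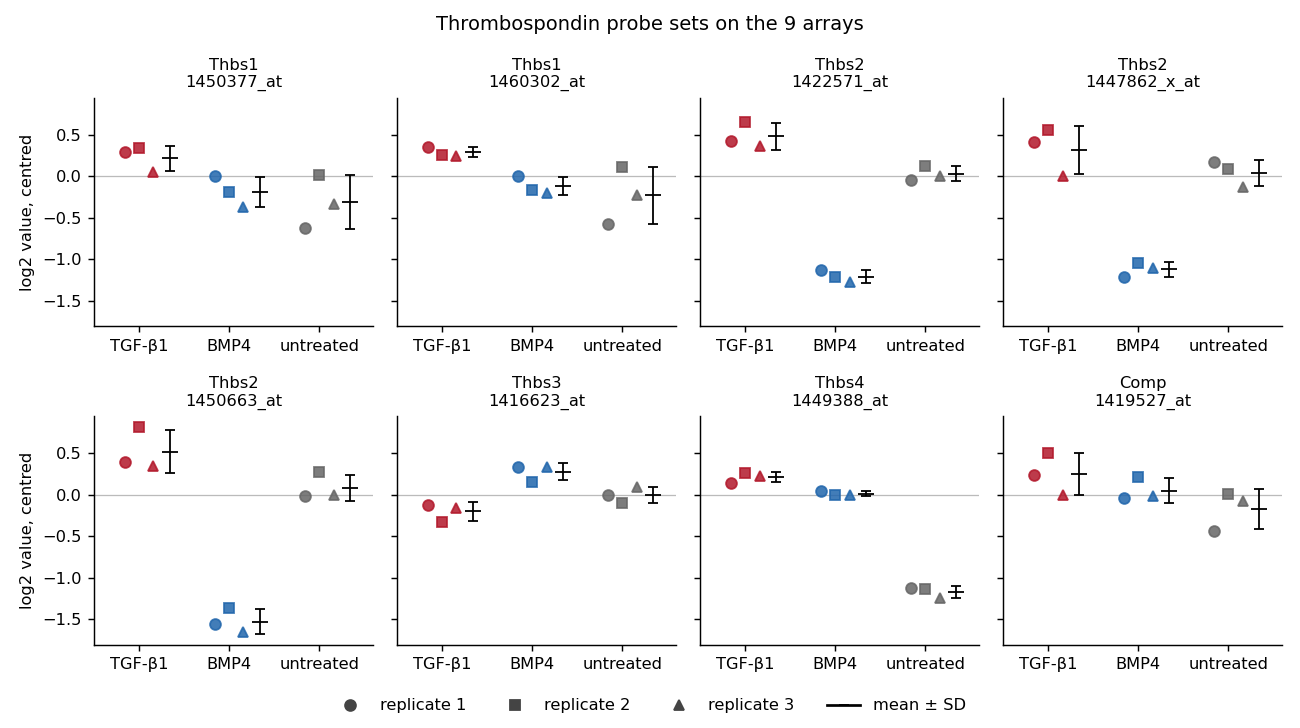
Centred log2 values (y axis) of the 8 thrombospondin probe sets, one panel each, on the TGF-β1, BMP4 and untreated arrays (x axis); symbols are replicates 1 to 3 and the bars are mean ± SD (n = 3). The 3 Thbs2 probe sets are lowest on the BMP4 arrays, between -1.66 and -1.04, and Thbs4 is lowest on the untreated arrays, between -1.25 and -1.12.

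Differences were tested with limma across all 45037 probe sets and called at a Benjamini-Hochberg adjusted p under 0.05. Where several probe sets report a gene, the one with the largest variance over the 9 arrays stands for it, and fold changes are back-transformed from log2 differences. Between TGF-β1 and untreated cultures, 1 of the 5 thrombospondin genes was called higher and 0 lower (2 of 8 probe sets higher). Over all genes 2.54% were higher and 4.21% lower, and over all probe sets 1.83% and 2.6%. Between BMP4 and untreated cultures, 1 gene was called higher and 1 lower (1 probe set higher and 3 lower). Over all genes 3.45% were higher and 4.51% lower, and over all probe sets 2.31% and 3.13%. Between TGF-β1 and BMP4 cultures, 1 was higher and 1 lower (3 probe sets higher and 1 lower), against 4.73% of all genes higher and 5.38% lower and 3.41% and 3.49% of all probe sets. The median log2 difference over the 5 genes was 0.44 for TGF-β1, 0.22 for BMP4 and 0.20 for TGF-β1 over BMP4, against 0.01 for TGF-β1, 0 for BMP4 and 0.01 for TGF-β1 over BMP4 over all genes. With replicate number added to the fit as a block, 3 genes were called higher with TGF-β1 against untreated cultures (8.95% of all probe sets called) and 1 higher and 1 lower between the factors (11.7% called). With the block as a random effect instead, at its estimated correlation of 0.186, 2 genes were called higher with TGF-β1 (3406 of 45037 probe sets called). Comp no longer passed (limma adjusted p = 0.083 with an estimated correlation). Here and below, the shares and totals given with the block or random effect cover probe sets called in either direction. No share over genes was computed for these fits. Both comparisons with untreated cultures use the same 3 untreated arrays. Array values were fully separated between groups for 6 of 8 thrombospondin probe sets with TGF-β1 (21.8% of all probe sets), 5 of 8 with BMP4 (20% of all) and 7 of 8 between the factors (25.5% of all). Probe sets of 1 gene measure the same RNA and are not independent.

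Thbs1, the trimeric member that releases active TGF-β from its latent complex, had centred log2 values of 0.29, 0.34 and 0.05 with TGF-β1, 0, -0.19 and -0.37 with BMP4 and -0.62, 0.02 and -0.33 in untreated cultures. All TGF-β1 arrays lay above all others, by a gap of only 0.03 over the highest untreated array, while BMP4 and untreated arrays overlapped. The difference between TGF-β1 and untreated cultures was 0.53 ± 0.16 (SE; 95% interval 0.18 to 0.89), or 1.45-fold, and was not called (limma adjusted p = 0.095, unadjusted p = 0.007). The other probe set, 1460302_at, gave 0.51 ± 0.15 (limma adjusted p = 0.085), and the 2 probe sets ran together over the 9 arrays (Pearson r = 0.97). The untreated arrays were the most spread for Thbs1 (SD 0.32, against 0.15 with TGF-β1 and 0.18 with BMP4). Leaving out the highest untreated array, replicate 2, brought the difference to 0.70 (limma adjusted p = 0.038), and leaving out the lowest, replicate 1, brought it to 0.38 (limma adjusted p = 0.25).

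With BMP4 the Thbs1 difference was 0.12 ± 0.16 (95% interval -0.23 to 0.47; limma adjusted p = 0.79). It was -0.03 without untreated replicate 1, so that no direction is given. Between TGF-β1 and BMP4 cultures Thbs1 differed by 0.41 ± 0.16 (95% interval 0.06 to 0.76; limma adjusted p = 0.17), which was not called although the arrays did not overlap.

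Thbs2, the other trimeric member, was 3.06-fold lower in BMP4 cultures than in untreated cultures. Its centred log2 values were 0.39, 0.82 and 0.35 with TGF-β1, -1.56, -1.37 and -1.66 with BMP4 and -0.01, 0.27 and 0 without a factor. The BMP4 arrays stood apart from all others, with a gap of 1.35 to the lowest untreated array. The BMP4 difference was -1.61 ± 0.14 (95% interval -1.92 to -1.31; limma adjusted p = 0.00021) and ranked 82 among the 45037 by p. The other 2 probe sets gave -1.24 ± 0.10 (1422571_at, 2.36-fold, limma adjusted p = 0.00013) and -1.16 ± 0.14 (1447862_x_at, 2.24-fold, limma adjusted p = 0.0013).

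Between TGF-β1 and untreated cultures the probe sets of Thbs2 were split by the threshold. Probe set 1450663_at had a difference of 0.44 ± 0.14 (95% interval 0.13 to 0.75), or 1.35-fold, and was not called (limma adjusted p = 0.12). It was called when replicate number entered the fit as a block (limma adjusted p = 0.010, and 0.043 with an estimated correlation). Probe set 1422571_at rose by 0.45 ± 0.10, or 1.37-fold (limma adjusted p = 0.028), with values of 0.42, 0.66 and 0.36 in TGF-β1 cultures and -0.04, 0.13 and 0 in untreated cultures. Probe set 1447862_x_at, whose arrays overlapped, differed by 0.28 ± 0.14 (limma adjusted p = 0.32). The call of 1422571_at was lost without TGF-β1 replicate 1 (limma adjusted p = 0.069) or 2 (0.077) and without untreated replicate 1 (0.10) or 3 (0.062).

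The comparison of the factors gave the widest separation among the thrombospondins. Thbs2 was 4.14-fold higher in TGF-β1 than in BMP4 cultures, a log2 difference of 2.05 ± 0.14 (95% interval 1.74 to 2.36; limma adjusted p = 4e-05, rank 44). The other probe sets gave 1.69 (3.22-fold, limma adjusted p = 1.3e-05) and 1.44 (2.72-fold, limma adjusted p = 0.00027). The 3 probe sets of Thbs2 had pairwise Pearson r of 0.97 to 0.99 over the 9 arrays.

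Thbs3, a pentameric member studied in bone and growth plate, varied least of the 5 genes, over a range of 0.68 log2 units on the 9 arrays. Its values were -0.12, -0.33 and -0.16 with TGF-β1, 0.34, 0.16 and 0.34 with BMP4 and 0, -0.10 and 0.10 without a factor. The 3 groups did not overlap, with TGF-β1 lowest, untreated cultures between and BMP4 highest, but the gaps to the untreated arrays were 0.02 and 0.06. Thbs3 was 1.40-fold lower in TGF-β1 than in BMP4 cultures, a log2 difference of -0.48 ± 0.09 (95% interval -0.69 to -0.28; limma adjusted p = 0.011). That call was lost without BMP4 replicate 1 (-0.45, limma adjusted p = 0.051).

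Against untreated cultures neither Thbs3 difference was called. TGF-β1 gave -0.21 ± 0.09 (95% interval -0.41 to 0; limma adjusted p = 0.27) and BMP4 gave 0.28 ± 0.09 (95% interval 0.07 to 0.48; limma adjusted p = 0.13). On the 3 arrays of each group Thbs3 was lowest on the array numbered 2, by a mean of 0.17, and without those arrays the difference between the factors was -0.48 (limma adjusted p = 0.036).

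Thbs4, a pentameric member abundant in tendon and at muscle attachments, was higher with either factor. Its centred log2 values were 0.14, 0.26 and 0.23 with TGF-β1, 0.04, 0 and 0 with BMP4 and -1.12, -1.14 and -1.25 in untreated cultures. The untreated arrays lay more than 1 log2 unit below all others, with a gap of 1.12 to the lowest BMP4 array. Thbs4 rose by 1.38 ± 0.07 with TGF-β1 (95% interval 1.22 to 1.54), or 2.6-fold (limma adjusted p = 1.8e-05, rank 8 of 45037). It rose by 1.18 ± 0.07 with BMP4 (95% interval 1.02 to 1.34), or 2.27-fold (limma adjusted p = 5.9e-05, rank 11).

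The replicates of Thbs4 were close. Its SD was 0.06 with TGF-β1, 0.03 with BMP4 and 0.07 in untreated cultures, and its residual SD of 0.0555 log2 units compares with a median of 0.1285 over all probe sets. The groups accounted for 99.4% of its variance over the arrays, against 48.2% for Comp and 59.8% for Thbs1. TGF-β1 arrays lay above BMP4 arrays by a gap of 0.10, but the difference of 0.20 ± 0.07 (95% interval 0.04 to 0.36), or 1.15-fold, was not called (limma adjusted p = 0.15). When the arrays were quantile normalised again the Thbs4 differences were 1.69 with TGF-β1 (limma adjusted p = 0.00072) and 1.5 with BMP4 (limma adjusted p = 0.0011).

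Comp, which bridges collagen fibrils in cartilage and tendon, had centred log2 values of 0.24, 0.50 and 0 with TGF-β1, -0.04, 0.22 and -0.02 with BMP4 and -0.44, 0.01 and -0.08 in untreated cultures. All 3 groups overlapped with their neighbours. The TGF-β1 difference was 0.42 ± 0.15 (95% interval 0.08 to 0.75), or 1.33-fold, and was not called (limma adjusted p = 0.17). The same difference passed narrowly with that block in the fit (limma adjusted p = 0.047) and missed the threshold with the block as a random effect (limma adjusted p = 0.083 with an estimated correlation). With BMP4 the difference was 0.22 ± 0.15 (95% interval -0.11 to 0.56; limma adjusted p = 0.53), and between the factors it was 0.19 ± 0.15 (95% interval -0.14 to 0.53; limma adjusted p = 0.53).

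**Figure D2:**
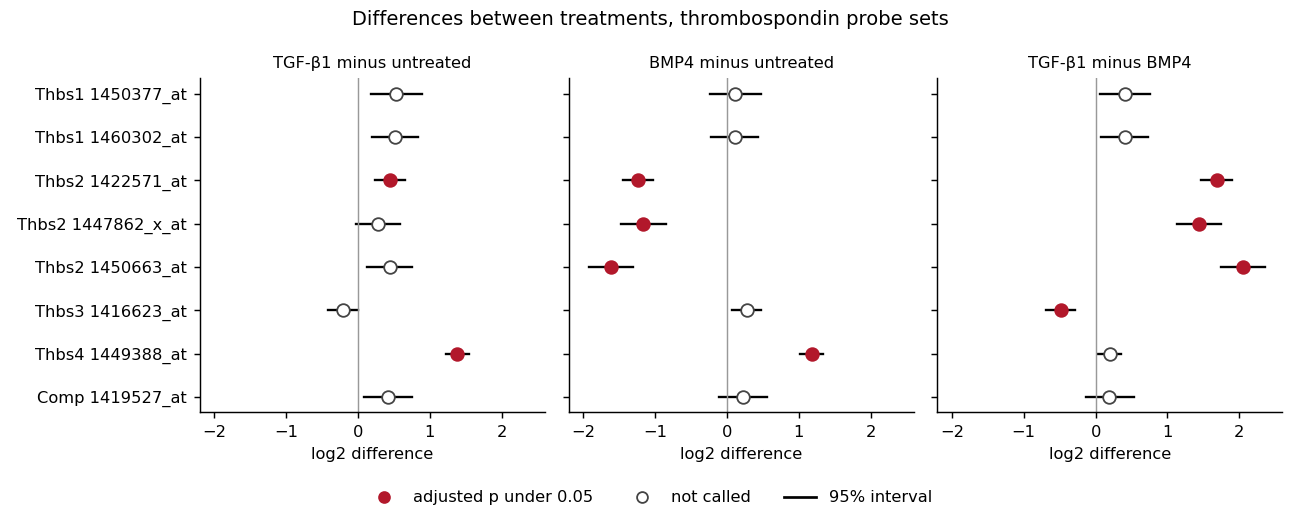
Log2 differences (x axis) with 95% intervals for the 8 thrombospondin probe sets (rows) in TGF-β1 against untreated, BMP4 against untreated and TGF-β1 against BMP4 cultures; filled points have an adjusted p under 0.05. Thbs4 is filled in both comparisons with untreated cultures (1.38 and 1.18), and Thbs2 runs from -1.61 with BMP4 to 2.05 between the factors.

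Comp and probe set 1450663_at of Thbs2 had their highest value on the array numbered 2 in each of the 3 groups, by a mean of 0.30 log2 units for Comp and 0.32 for Thbs2 over the other arrays. The other Thbs2 probe sets were highest there in only 2 of the 3 groups, and lay above the other arrays by a mean of 0.14 (1422571_at) and 0.18 (1447862_x_at). Thbs4 differed by 0.03 and Thbs1 by 0.22. The summed chondrocyte markers (Sox9, Col2a1, Acan, Col9a1, Matn1) were also higher on these arrays, by a mean of 0.66 per gene. Without the 3 arrays the TGF-β1 difference of Comp was 0.38 (limma adjusted p = 0.27), the BMP4 difference of Thbs2 was -1.60 (limma adjusted p = 0.00053), and the part of the chondrocyte markers in the Comp values was not tested.

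The order of the group means differed between genes. Thbs1 had means of 0.22 ± 0.15 with TGF-β1, -0.19 ± 0.18 with BMP4 and -0.31 ± 0.32 without a factor (SD, n = 3), and Comp had 0.25 ± 0.25 with TGF-β1, 0.05 ± 0.15 with BMP4 and -0.17 ± 0.24 without a factor. Thbs4 had 0.21 ± 0.06 with TGF-β1, 0.01 ± 0.03 with BMP4 and -1.17 ± 0.07 without a factor, and its steps from untreated cultures were the only ones among these 3 genes that passed the test. For Thbs1 the order of BMP4 and untreated cultures turned round without untreated replicate 1, and is not read. Thbs2 had 0.52 ± 0.26 with TGF-β1, -1.53 ± 0.15 with BMP4 and 0.08 ± 0.16 without a factor, and Thbs3 had -0.20 ± 0.11 with TGF-β1, 0.28 ± 0.10 with BMP4 and 0 ± 0.10 without a factor, the opposite order. Over the 9 arrays Thbs2 and Thbs3 had a Pearson r of -0.94 (Spearman rho -0.95) and Thbs1 and Comp 0.82 (rho 0.82). These correlations describe arrays that share treatments and are not tests.

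By the rule that the 3 genes with the highest Pearson r to each thrombospondin over the 9 arrays are named, 18188 other genes were searched. The closest profile to Thbs4 was that of Pdgfrl, a PDGF receptor-like gene (r = 0.999). Pdgfrl had 0.07, 0.21 and 0.18 with TGF-β1, 0.07, 0 and -0.05 with BMP4 and -1, -0.98 and -1.10 in untreated cultures, and differed by 1.18 with TGF-β1 and 1.03 with BMP4. It was followed by Myo1d, an unconventional myosin (r = 0.974, 1.55 with TGF-β1 and 1.21 with BMP4), and Mphosph6 (r = 0.972, 0.38 with TGF-β1 and 0.32 with BMP4).

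For Thbs2 the nearest were Sema3a (r = 0.994) and Sema3f (r = 0.991), which encode secreted semaphorins, and Npepl1 (r = 0.993). With BMP4 they differed by -0.79 (Sema3a), -1.64 (Sema3f) and -0.57 (Npepl1), and with TGF-β1 by 0.18 (Sema3a), 0.21 (Sema3f) and 0.17 (Npepl1). For Thbs3, Tcaf2 (r = 0.98) and Dusp1 (r = 0.979), a MAP kinase phosphatase, were closest. Between TGF-β1 and BMP4 cultures they differed by -0.84 (Tcaf2) and -1.14 (Dusp1). For Thbs1 they were Efnb2, an ephrin ligand (r = 0.962), Stx6 (r = 0.961) and B3gnt2 (r = 0.959), with TGF-β1 differences of 0.79 (Efnb2), 0.35 (Stx6) and 0.59 (B3gnt2). For Comp they were Ddost (r = 0.93), Upp2 (r = 0.929) and Serpina3i (r = 0.929), which differed by at most 0.24 with TGF-β1. With 9 arrays in 3 groups many genes reach a high r, so likeness is a description only.

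**Figure D3:**
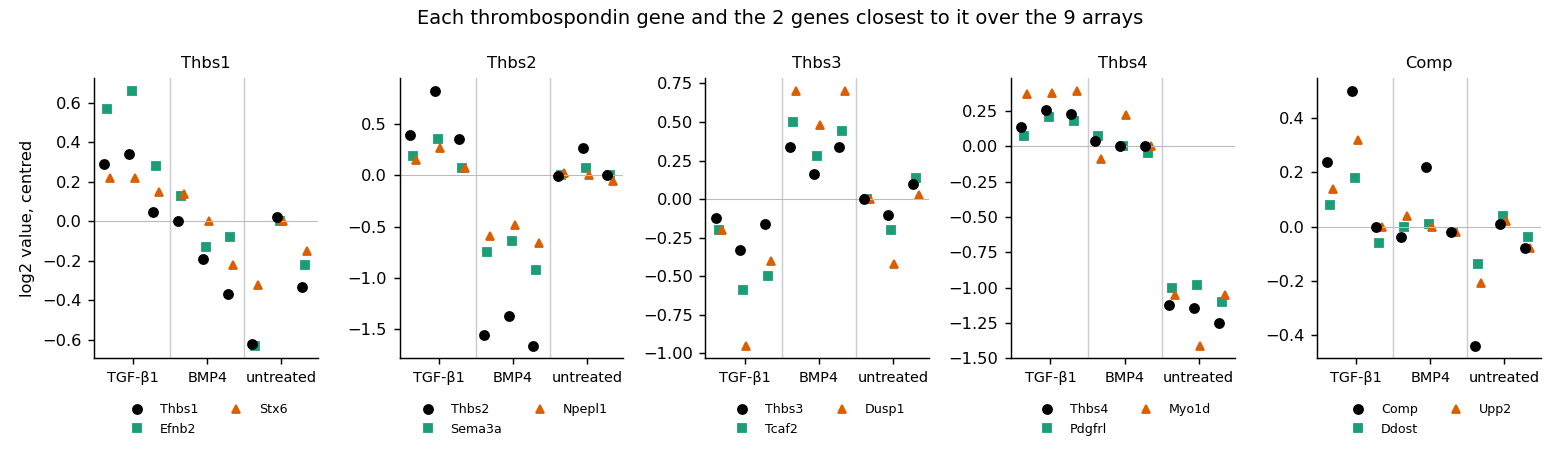
Centred log2 values (y axis, scaled separately in each panel) on the 9 arrays (x axis, TGF-β1, BMP4 and untreated, replicates 1 to 3 from left to right in each) of each thrombospondin gene in black and the 2 genes with the highest Pearson r to it in colour. Pdgfrl follows Thbs4 from array to array (r = 0.999), while the genes nearest to Comp span a smaller range than Comp itself.

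Cells bind thrombospondins through CD36, CD47, integrins, syndecans and LRP1. Of 14 receptor genes measured, 0 were higher and 2 lower with TGF-β1, 0 higher and 1 lower with BMP4, and 0 higher and 1 lower in TGF-β1 against BMP4 cultures. Over all genes the shares were 2.54% higher and 4.21% lower with TGF-β1, 3.45% and 4.51% with BMP4 and 4.73% and 5.38% between the factors. The receptors had medians of 0.03 for TGF-β1, -0.04 for BMP4 and 0.16 between the factors. Cd36, the scavenger receptor that binds the type 1 repeats of Thbs1 and Thbs2, fell by 0.86 ± 0.13 with TGF-β1, or 1.81-fold (limma adjusted p = 0.0067), and differed by -0.18 ± 0.13 with BMP4 (limma adjusted p = 0.56). Itga4, an integrin alpha subunit, fell by 0.55 ± 0.11 with TGF-β1 (limma adjusted p = 0.021) and by 0.44 ± 0.11 with BMP4 (limma adjusted p = 0.044), and 2 of its 5 probe sets were lower in each. Both Itga4 calls were lost without several single arrays, namely TGF-β1 replicate 1 or 2 or untreated replicate 1 or 3, and the BMP4 call also without BMP4 replicate 1 or 2 (limma adjusted p up to 0.082 with TGF-β1 and up to 0.16 with BMP4). In TGF-β1 against BMP4 cultures Cd36 was lower by -0.68 (limma adjusted p = 0.013), a call lost without TGF-β1 replicate 2 (0.052) or BMP4 replicate 1 (0.054).

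Among 13 matrix partners of COMP, 1 was higher and 0 lower with TGF-β1, 1 was higher and 1 lower with BMP4, and 3 were higher and 1 lower in TGF-β1 against BMP4 cultures (over all genes 2.54% and 4.21% with TGF-β1, 3.45% and 4.51% with BMP4, and 4.73% and 5.38% between the factors). Fn1 (fibronectin) rose by 1.12 ± 0.16 with TGF-β1, or 2.17-fold (limma adjusted p = 0.0052), in the comparison where the Comp difference of 0.42 was not called. Acan (aggrecan, the large cartilage proteoglycan) rose by 1.89 ± 0.23 with BMP4, or 3.71-fold (limma adjusted p = 0.0013), and Col1a2, a type I collagen chain, fell by 0.76 ± 0.12 (limma adjusted p = 0.0054). Between the factors Acan was lower by -1.52 in TGF-β1 cultures (limma adjusted p = 0.0031), Col1a2 higher by 0.85 (limma adjusted p = 0.0022) and Fn1 higher by 0.81 (limma adjusted p = 0.014). The Fn1 call was lost without TGF-β1 replicate 2 (0.058) or BMP4 replicate 1 (0.066) or 2 (0.059). The other called partner between the factors was Col1a1 at 0.46 (limma adjusted p = 0.0081). With that block in the fit, 4 partners were called with TGF-β1 against untreated cultures (3 higher, 1 lower) and 10 between the factors (3 higher, 7 lower). The block also raised the calls over all probe sets, to 8.95% with TGF-β1 and 11.7% between the factors. With the block as a random effect only 1 partner was called with TGF-β1 (higher) and 6 between the factors (3 higher, 3 lower). Over all 45037 probe sets the random effect called 3406 with TGF-β1 and 4639 between the factors. Of the receptors, 3 were called between the factors with the block (2 higher, 1 lower) and 1 (lower) with the random effect.

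Latent TGF-β, the substrate of Thbs1, is stored and released through the products of a further list of genes. Of 12 measured of 14 listed, 4 were higher and 1 lower with TGF-β1, 2 higher and 3 lower with BMP4, and 3 higher and 1 lower between the factors (over all genes 2.54% and 4.21% with TGF-β1, 3.45% and 4.51% with BMP4, and 4.73% and 5.38% between the factors). With TGF-β1, Ltbp2, a latent TGF-β binding protein gene, rose by 1.24 ± 0.25, or 2.36-fold (limma adjusted p = 0.025), Tgfb1 by 1.09 ± 0.22 (limma adjusted p = 0.021) and Tgfb3 by 0.73 ± 0.09 (limma adjusted p = 0.002), while Tgfb2 fell by 0.98 ± 0.16 (limma adjusted p = 0.0098). With BMP4, Tgfb1 rose by 1.08 ± 0.22 (limma adjusted p = 0.018) and Furin, which encodes the convertase that cleaves the TGF-β precursor, by 0.57 ± 0.11 (limma adjusted p = 0.012), while Tgfb3 fell by 0.77 ± 0.09 (limma adjusted p = 0.00099). Tgfb3, like Thbs2, was thus lower with BMP4, and between the factors it was 2.83-fold higher with TGF-β1 (1.5 ± 0.09; limma adjusted p = 1.5e-05).

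Ltbp1 was higher with TGF-β1 (0.44, limma adjusted p = 0.035), lower with BMP4 (-0.49, limma adjusted p = 0.017) and higher by 0.93 between the factors (limma adjusted p = 0.00042). Tgfb2 was lower between the factors (-0.71, limma adjusted p = 0.028), and Itgb6 was lower with BMP4 (-0.47, limma adjusted p = 0.029) and Ltbp4 higher between the factors (0.58, limma adjusted p = 0.015). Only 1 of the 2 probe sets of Tgfb1 was called with BMP4, and 1 of the 3 of Ltbp1 with TGF-β1 and with BMP4. Several of these calls rest on single arrays. The Tgfb1 calls were lost without untreated replicate 2 or 3 and without replicate 1 or 3 of the factor concerned (limma adjusted p up to 0.089 with TGF-β1 and 0.072 with BMP4), and that of Ltbp2 without TGF-β1 replicate 1 or 3 or untreated replicate 2 (up to 0.095). The call of Ltbp1 with TGF-β1 was lost in 7 of 9 such fits (all but those without BMP4 replicate 1 or 2; up to 0.12), and with BMP4 without BMP4 replicate 2 or untreated replicate 1 (up to 0.067). The Tgfb2 call between the factors was lost without any one of the BMP4 arrays (up to 0.086), that of Ltbp4 without TGF-β1 replicate 2 or BMP4 replicate 1 (up to 0.063), and that of Itgb6 without BMP4 replicate 2 or 3 or any one of the untreated arrays (up to 0.11). With that block in the fit, 8 genes of the list were called with TGF-β1 (7 higher, 1 lower, against 8.95% of all probe sets called) and 8 between the factors (7 higher, 1 lower, against 11.7%). These were not all the same genes, since Tgfb1 and Furin were called with TGF-β1 (limma adjusted p = 0.00081 for Tgfb1 and 0.047 for Furin) but not between the factors (0.94 for Tgfb1 and 0.23 for Furin). With the random effect 8 were called with TGF-β1 (7 higher, 1 lower) and 7 between the factors (6 higher, 1 lower). Over all 45037 probe sets it called 3406 with TGF-β1 and 4639 between the factors.

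**Figure D4:**
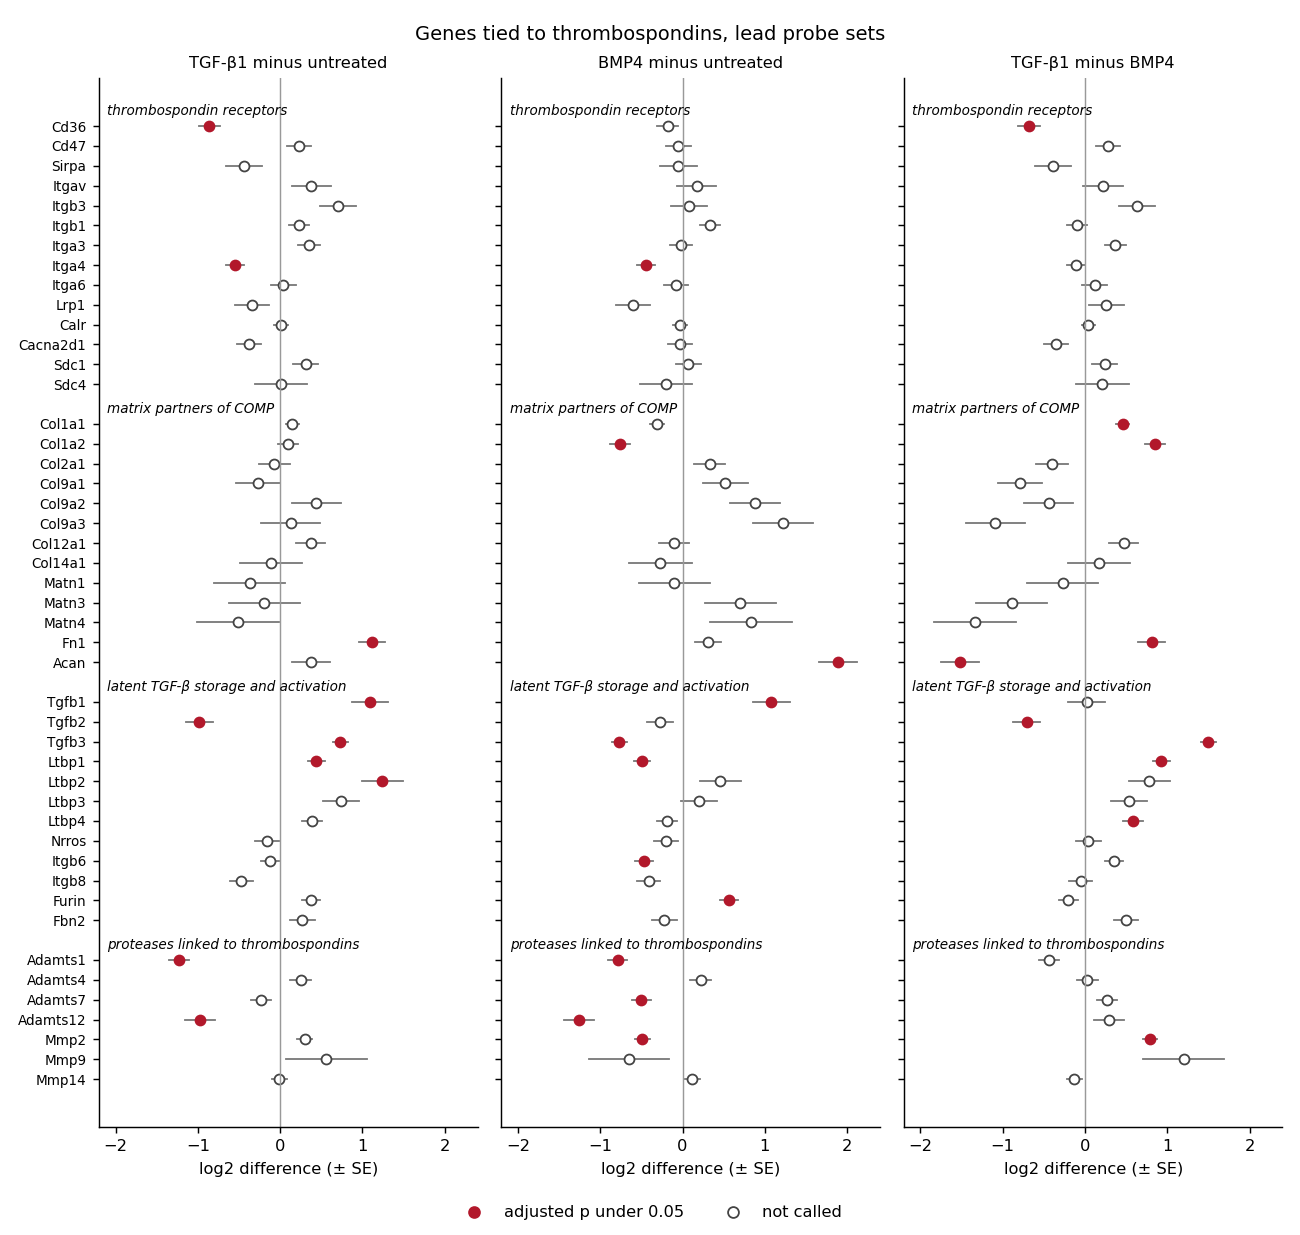
Log2 differences with SE (x axis) for genes tied to thrombospondins (rows, grouped by role) in TGF-β1 against untreated, BMP4 against untreated and TGF-β1 against BMP4 cultures; filled points have an adjusted p under 0.05. Acan (1.89) is the partner furthest to the right with BMP4, and the called proteases lie left of 0 in both comparisons with untreated cultures.

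Of 7 genes of proteases that cleave or are cleared by thrombospondins, 0 were higher and 2 lower with TGF-β1 (over all genes 2.54% and 4.21%), 0 higher and 4 lower with BMP4 (3.45% and 4.51%), and 1 was higher and 0 lower between the factors (4.73% and 5.38%). Adamts1, whose product cleaves Thbs1 and Thbs2, fell by 1.23 ± 0.12 with TGF-β1, or 2.34-fold (limma adjusted p = 0.00075), and by 0.79 ± 0.12 with BMP4 (limma adjusted p = 0.0051). Adamts12, which encodes a COMP-cleaving enzyme, fell by 0.97 ± 0.18 with TGF-β1 (limma adjusted p = 0.017) and by 1.26 ± 0.18 with BMP4 (limma adjusted p = 0.0034), although its other probe set differed by 0.03 with TGF-β1 and 0.02 with BMP4. The study lists the probe set that fell here, under the name Adamts12, as higher with TGF-β, which is the opposite direction. The running text of the study names Adamtsl2, not Adamts12, among the genes raised by TGF-β. The source of this difference was not tested. Adamts7, another COMP-cleaving enzyme gene, fell by 0.50 with BMP4 (limma adjusted p = 0.045), a call that held only without BMP4 replicate 3 among the fits that each left out an array (the others up to 0.13).

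Mmp2, a gelatinase that Thbs2 helps to clear from the cell surface, fell by 0.49 ± 0.09 with BMP4 (limma adjusted p = 0.0094) and was higher by 0.79 ± 0.09 in TGF-β1 than in BMP4 cultures (limma adjusted p = 0.00055). Thbs2 differed in the same direction in both of these comparisons. The Adamts12 call with TGF-β1 was lost without TGF-β1 replicate 2 or untreated replicate 1 or 2 (limma adjusted p up to 0.065). With the block, 2 proteases were called between the factors, both higher with TGF-β1 (11.7% of all probe sets called). With the random effect 1 was higher and 1 lower (4639 of 45037 probe sets called).

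Of 17 other genes with thrombospondin type 1 repeats, 0 were higher and 5 lower with TGF-β1 (over all genes 2.54% and 4.21%), 2 higher and 2 lower with BMP4 (3.45% and 4.51%), and 1 higher and 4 lower between the factors (4.73% and 5.38%). The list had medians of -0.25 for TGF-β1, -0.18 for BMP4 and 0.01 between the factors. Rspo2, which encodes an R-spondin that raises Wnt signalling, fell by 1.41 ± 0.16 with TGF-β1, or 2.65-fold (limma adjusted p = 0.0015), although its other probe set differed by 0.11. Adgrb3, an adhesion receptor gene, fell by 1.27 ± 0.21 (limma adjusted p = 0.011), and Rspo1 by 0.83 ± 0.12 (limma adjusted p = 0.0059). With BMP4 Rspo1 also fell, by 1.10 ± 0.12 (limma adjusted p = 0.00085), as did Sema5b, a semaphorin gene, by 0.84 ± 0.14 (limma adjusted p = 0.0081), while Thsd7a rose by 1.06 ± 0.12 (limma adjusted p = 0.00077) on 1 of its 2 probe sets.

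Between the factors Thsd7a was lower by -1.55 in TGF-β1 cultures (limma adjusted p = 6.4e-05), Adgrb3 by -1.31 (limma adjusted p = 0.0049) and Rspo3 by -1.07 (limma adjusted p = 0.0013). The remaining calls of the list were Thsd7a (-0.48, limma adjusted p = 0.046) and Thsd7b (-0.47, limma adjusted p = 0.032) with TGF-β1, Rspo3 with BMP4 (0.61, limma adjusted p = 0.029), and Rspo2 (-0.80, limma adjusted p = 0.015) and Sema5b (0.71, limma adjusted p = 0.015) between the factors. Only 1 of 2 probe sets was called for Thsd7a with TGF-β1 (the other at -0.19) and for Rspo3 with BMP4 (the other at 0.40). The same held between the factors for Rspo2 (the other at 0.11) and Rspo3 (the other at -0.26). Each of the remaining calls was lost without single arrays. The limma adjusted p reached 0.15 for Thsd7a (lost in all but the fits without TGF-β1 replicate 1 or BMP4 replicate 1) and 0.11 for Thsd7b (lost without TGF-β1 replicate 1 or 3, BMP4 replicate 3 or untreated replicate 1 or 2). It reached 0.11 for Rspo3 (BMP4 replicate 1 or 3, untreated replicate 2 or 3), 0.062 for Rspo2 (TGF-β1 replicate 1 or 3, BMP4 replicate 1 or 2) and 0.066 for Sema5b (TGF-β1 replicate 2, BMP4 replicate 1 or 2). The block brought the calls with TGF-β1 to 8, all lower (8.95% of all probe sets called). The random effect brought them to 7, all lower (3406 of 45037 probe sets called). Col1a1, Itgb6, Ltbp4 and Thsd7b were named after their values were seen.

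The nearest protein-coding genes on either side of each thrombospondin gene were also read. Smoc2, a matricellular protein gene that lies 260709 bases from Thbs2, was lower with BMP4 (-2.04 ± 0.14; limma adjusted p = 7.2e-05), as Thbs2 was. With TGF-β1 Smoc2 was lower too (-0.65 ± 0.14; limma adjusted p = 0.027), a call lost without any one of the TGF-β1 or untreated arrays (limma adjusted p up to 0.092), whereas 1422571_at of Thbs2 rose. The other 9 neighbours were not called against untreated cultures. Serinc5, 39638 bases from Thbs4, differed by -0.58 ± 0.15 with TGF-β1 (limma adjusted p = 0.06) and by 0.45 ± 0.15 with BMP4 (limma adjusted p = 0.13). Mtx1, 1272 bases from Thbs3, differed by -0.01 in both.

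Markers of other cells were read beside these results as the mean centred log2 value per list on each array. Tendon markers (Scx, Tnmd, Mkx, Fmod) ranged from 1.26 to 1.53 with TGF-β1, -0.74 to -0.14 with BMP4 and -0.35 to -0.04 in untreated cultures. Of these Tnmd was not called with TGF-β1 (0.58, limma adjusted p = 0.33), and the study uses Fmod as an IVD marker. Thbs1, Thbs2, Thbs4 and Comp also had their highest means with TGF-β1, and Thbs3 its lowest. The differences of Thbs1 and Comp were not called, and Thbs4 was high with BMP4 as well. Chondrocyte markers ranged from -0.31 to 0.20 with TGF-β1, 0.54 to 1.33 with BMP4 and -0.33 to 0.38 without a factor, and sclerotome markers from -0.04 to 0.18 with TGF-β1, -0.53 to -0.48 with BMP4 and 0 to 0.48 without a factor. Members of these lists differed. With BMP4 Sox9 (1.75) and Acan (1.89) were called, but Col2a1 (0.33), Col9a1 (0.52) and Matn1 (-0.10) were not. Of 7 sclerotome markers 4 were called lower with BMP4, while Pax9 (-0.39), Nkx3-2 (0.22) and Foxc2 (0.30) were not called. Erythroid markers ranged from -0.40 to 0.17 with TGF-β1, -0.37 to 0.08 with BMP4 and -0.19 to 1.09 without a factor. These ranges overlapped, and no erythroid marker was called. Platelet and megakaryocyte markers, cells that store Thbs1, ranged from -0.27 to 0.10 with TGF-β1, 0.07 to 0.22 with BMP4 and -0.33 to 0.07 without a factor. Of this list only Gp1bb was called with BMP4 against untreated cultures (1.10, limma adjusted p = 0.0048). Pf4 (-0.03), Ppbp (-0.13), Itga2b (0) and Gp9 (0.06) were not. Skeletal muscle markers ranged from -0.28 to -0.09 with TGF-β1, -0.06 to 0.10 with BMP4 and 0.11 to 0.17 without a factor. In that list Myf5 was called higher (0.83) and Ttn lower (-0.54) with BMP4, and 2 of 8 were called lower with TGF-β1. Neuron markers ranged from -0.65 to -0.05 with TGF-β1, -0.42 to 0.13 with BMP4 and -0.02 to 0.19 without a factor, and the ranges of the neural crest, notochord, endothelium and macrophage lists overlapped between all groups. The part of these markers in the thrombospondin values was not tested.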

How the data were processed

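Signals of Affymetrix mouse arrays were background-corrected and RMA-normalised by the authors in GeneSpring, and the deposited values are log2 signals (no software version was found in the sources used here). Over the 9 arrays the median of each of the 45101 probe sets was 0 (tolerance 1e-06), so the deposited values had been centred by probe set. Levels and signal over background were lost, and no filter on dim probe sets was made. Affymetrix controls (64 probe sets) were not tested. Of the 45037 others, 34945 carried 1 symbol in the platform annotation, 932 several and 9160 none.

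Linear models of the 3 groups over all 9 arrays were fitted with limma 3.58.1 in R 4.3.3 (6 residual and 4.01 prior degrees of freedom), and two-sided p values were adjusted by Benjamini-Hochberg over the 45037 probe sets. The script was tested on simulated data. Groups came from the agent in the labels. Array SDs were 0.178 to 0.258, and 0 pairs of arrays were identical. Replicate numbers come from the sample titles. The main fit held group means only and was not paired by these numbers. Deviations of same-numbered TGF-β1 arrays from their group means correlated with those of untreated arrays (0.14, 0.49 and 0.28) and of BMP4 arrays (0.29, 0.50 and 0.38). For comparisons with TGF-β1, fits with the number as a block are therefore given beside the main fit. BMP4 and untreated arrays gave -0.05, 0.50 and 0.24, and their block is given only among the other settings.

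Named genes are all member probe sets, up to 3 called members of each list per comparison by largest difference, the 3 genes of highest Pearson r to each member, and the nearest genes. A gene of the likeness rule for Thbs3 is not reported here. The members, the 5 partner lists and the 11 marker lists were chosen with earlier results of these data known, among them the BMP4 fall of Thbs2 and the rises of Thbs4. Alternatives changed the scaling, block, arrays, weights, moderation, filter, test and probe set rule. Figures were drawn with matplotlib 3.10.9 in Python 3.11.15.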

Additional observations from a re-analysis of the deposited data

How the results depend on the processing

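Each member's difference was recomputed under 21 other settings, 9 of which left out 1 array each, and of the 315 values 301 kept their direction and their side of the threshold. The calls of Thbs4 against untreated cultures and of Thbs2 with BMP4 and between the factors held in all settings but the Welch t-test after Benjamini-Hochberg. This test stood in for the study's ANOVA with unequal variance, which had limits of 2-fold and p under 0.05. The study names no adjustment of p values. With the adjustment, the Welch t-test gave Thbs2 -1.61 (adjusted p = 0.24) and Thbs4 1.18 (0.24) with BMP4, and Thbs4 1.38 (0.094) with TGF-β1. Between the factors it gave Thbs2 2.05 (0.15) and Thbs3 -0.48 (0.22). Its fits have no variance shared across probe sets.

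With the replicate number as a block, Thbs2 at 0.44 (limma adjusted p = 0.010) and Comp at 0.42 (0.047) were called with TGF-β1. For BMP4 against untreated cultures, whose same-numbered arrays did not all correlate, the block made Thbs3 at 0.28 pass (0.037). Over all groups, 8 of 9 arrays correlated best with their own number. As a random effect (correlation 0.186) it made Thbs2 at 0.44 pass (0.043), while Comp at 0.42 with TGF-β1 (0.083) and Thbs3 at 0.28 with BMP4 (0.057) did not. The block changed no other member call. With BMP4 against untreated cultures the block called 7 COMP partners (6 higher, 1 lower), against 2 in the main fit. It called 9 type 1 repeat genes (3 higher, 6 lower), against 4, and 6 latent TGF-β genes, against 5. Receptors stayed at 1 and proteases at 4. The random effect called 5 partners (3 higher, 2 lower) and 6 repeat genes (2 higher, 4 lower). Over all probe sets the block called 4069 and the random effect 3636, against 2449. Of 180 values of the other Thbs1 and Thbs2 probe sets, 163 kept direction and call. Array weights made Thbs1 at 0.63 pass with TGF-β1 (0.047). Thbs3 at -0.48 between the factors missed the study's 2-fold limit.

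Without 1 array, the Thbs1 difference ranged from -0.03 to 0.29 with BMP4 (-0.06 for 1460302_at without untreated replicate 1) and from 0.38 to 0.70 with TGF-β1, and Thbs3 ranged from -0.54 to -0.42 between the factors.

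The number of called probe sets was 1993 with TGF-β1, 2449 with BMP4 and 3110 between the factors. It was 4029 with TGF-β1, 4069 with BMP4 and 5252 between the factors under the block, and 3406 with TGF-β1 under the random effect. With only the 2 groups compared it was 1172 with TGF-β1 and 1617 with BMP4. Without the arrays numbered 2 it was 888 with TGF-β1, 1200 with BMP4 and 1819 between the factors. The Welch t-test with a 2-fold limit gave 253 with TGF-β1, 433 with BMP4 and 543 between the factors. After Benjamini-Hochberg it gave 0 with TGF-β1 (4996 at an unadjusted p under 0.05), 0 with BMP4 (4644) and 11 between the factors (6191). Without 1 array the number called by limma ranged from 867 to 2053 with TGF-β1, 1431 to 2262 with BMP4 and 1877 to 3330 between the factors. The mean of all probe sets of a gene gives no count of probe sets. Of 378 counts of called list members, 285 stayed within 1.5 times, 26 were higher and 67 lower. The causes of these changes were not tested. Signal over background could not be judged, since the values are centred.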
